A study of Mus musculus with 42 samples.

Results

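The comparison described here is between lungs taken at ZT4 and at ZT16 from mice kept in their home cages. It used 6 of the 42 libraries of the series, 3 at each time, and the 17132 of 54532 listed genes whose mean level over these 6 libraries was at least 0.5 FPKM (reads per kilobase of gene, on a common scale across libraries). These genes held at least 99.59% of the reads of each library. At the edge of the filter, Hif3a was kept with a mean of 0.50051 FPKM and Gm13653 was left out with 0.49976 FPKM.

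The series holds RNA sequencing of whole lung from wild-type C57BL/6J mice, sampled every 4 h for 24 h, in home cages (Ctrl) and in SD cages. The series title names sleep deficiency, and the labels do not spell out SD. For 2 days before sampling, mice spent 20 h of each day, from clock hour 14 to clock hour 10, in home cages or in SD cages by group. Lights came on at clock hour 8 (ZT0) and went off at clock hour 20 (ZT12), and food and water were freely available. ZT4 is clock hour 12, in the early rest phase of a mouse, and ZT16 is clock hour 24, in the early active phase, 12 h apart. The labels give no age or sex, describe the 3 libraries of each group as biological replicates, and leave unsaid if a library came from 1 animal or several. The p-values below therefore measure only the spread between these libraries, which may be in part technical.

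The circadian clock of a mammalian cell is a loop of transcription factors. ARNTL (BMAL1) and CLOCK switch on the genes Per, Cry and Nr1d through a DNA motif called the E-box. PER and CRY proteins then shut off ARNTL and CLOCK, NR1D1 and NR1D2 (REV-ERB) repress Arntl and other genes with a ROR element, and activators that bind the same element oppose them. DBP, TEF, HLF and NFIL3 act on a further motif, the D-box, and carry the rhythm to genes outside the loop. The lung has its own clock, and the club cells of the airway lining, immune cells and the vessel wall are known to keep time in it.

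RNA was sequenced to a depth of 26979174 to 27925908 recovered reads per library in the 6 libraries. Lung markers were high at both times: Sftpc, the surfactant protein of alveolar type 2 cells, lay between 18393 and 21909 FPKM in the 6 libraries. Libraries of a group lay close together, with a median SD per gene of 0.0677 log2 units at ZT4 and 0.0874 at ZT16, yet each pair of libraries differed by more than sampling noise, so all 6 were counted. The share of reads from the mitochondrial genome was 4.72% to 4.96% at ZT4 and 2.09% to 2.46% at ZT16. The gene with the most reads in each library, not always the same gene, took 3.99% to 4.35% of reads at ZT4 and 1.94% to 2.04% at ZT16. In bulk RNA, fewer cells of a type and less RNA per cell cannot be told apart.

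Promoter sequences are shown for the clock genes that changed at least 2-fold and hold a clock motif near their start, so that the motifs can be seen beside the direction in which each gene moved. The windows run from 250 bases before to 50 bases after a transcription start of the RefSeq annotation on build GRCm38.p6 and are written on the gene's own strand. Capitals mark an E-box (CACGTG) or a ROR core site (AGGTCA, which reads TGACCT on the opposite strand). The Per1 window lies at chr11:69098699-69098998 on the plus strand, with an E-box that begins 166 bases before the start and with 1 ROR core site. The Nr1d2 window lies at chr14:18239057-18239356 on the minus strand and holds 1 ROR core site. The Cry1 window lies at chr10:85185005-85185304 on the minus strand, with an E-box that begins 60 bases before the start.
Per1: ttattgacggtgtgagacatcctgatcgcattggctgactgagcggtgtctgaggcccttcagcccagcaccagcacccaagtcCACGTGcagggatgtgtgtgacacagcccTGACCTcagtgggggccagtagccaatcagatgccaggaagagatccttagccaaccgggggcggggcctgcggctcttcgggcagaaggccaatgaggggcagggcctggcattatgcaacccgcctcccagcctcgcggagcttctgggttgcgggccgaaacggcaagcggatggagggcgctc
Nr1d2: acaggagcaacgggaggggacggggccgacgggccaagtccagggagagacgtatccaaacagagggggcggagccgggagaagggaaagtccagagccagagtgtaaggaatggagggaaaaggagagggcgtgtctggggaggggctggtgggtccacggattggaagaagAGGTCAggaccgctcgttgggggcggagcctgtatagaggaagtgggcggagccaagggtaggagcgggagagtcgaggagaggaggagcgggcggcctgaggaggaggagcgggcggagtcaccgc
Cry1: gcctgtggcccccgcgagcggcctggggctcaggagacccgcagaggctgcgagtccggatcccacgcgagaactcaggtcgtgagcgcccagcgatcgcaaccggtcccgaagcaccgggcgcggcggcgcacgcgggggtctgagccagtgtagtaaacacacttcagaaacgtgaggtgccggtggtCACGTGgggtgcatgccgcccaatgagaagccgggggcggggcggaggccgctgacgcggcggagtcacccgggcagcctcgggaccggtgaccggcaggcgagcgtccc

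Of the 17 clock genes with a window in the table, 5 held an E-box, 3 a D-box (TTANNTAA) and 5 a ROR core site, searched on both strands. These genes have 23 windows, of which 6 held an E-box, 3 a D-box and 5 a ROR core site. Among all 32851 windows of the table, 7.15% held an E-box, 6% a D-box and 16.3% a ROR core site. Per1 and Cry1 share the E-box although Per1 rose and Cry1 fell from ZT16 to ZT4. A second Per1 window holds none of the 3 motifs, and Per2 and Bhlhe40 have no entry. The windows of Nr1d1 and Dbp, the clock genes with the largest rises, hold none of them either, and a match or its absence in such a window is a description only.

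The first question of the design is which lung genes differ between the 2 times in mice of the home cage group. At ZT4 the largest rises included those of the airway gene Bpifa1, the clock repressor Nr1d1, the enzyme genes Sult1d1, Cyp2a5, Pon1 and Cyp2f2, Mir143, 3 mitochondrial tRNA genes and the mesothelial gene Upk3b. The largest falls were in immunoglobulin and plasma cell genes, the chemokine gene Cxcl13, Ly6i, Itln1 and Cd177. Differences are ZT4 minus ZT16 of the mean log2(FPKM + 1), and a fold is 2 to that power, which understates the ratio of low genes. A gene was called with limma at a Benjamini-Hochberg adjusted p under 0.05. In all, 10471 of 17132 genes (61.1%) were called, 4929 higher at ZT4 (28.8%) and 5542 lower (32.3%). The counts given below for gene lists in Ctrl are to be read beside these shares. At least 2-fold were 430 of the higher genes (2.51%) and 797 of the lower (4.65%). The 3 ZT4 values did not overlap the 3 ZT16 values for 10690 genes (62.4%). The median difference over all genes was -0.02 log2 units and the median size of a difference 0.24. Of the 797 genes at least 2-fold lower, 174 were immunoglobulin genes, of 186 tested, and 623 were not. A gene could pass the filter through its ZT16 level alone, so the share of immunoglobulin genes that fell is a description only. With the filter taken over all 42 libraries, 726 genes were at least 2-fold lower. Among the 430 at least 2-fold higher, 23 were encoded by mitochondrial DNA and 20 were miRNA genes, whose transcripts are shorter than a sequenced fragment.

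**Figure D1:**
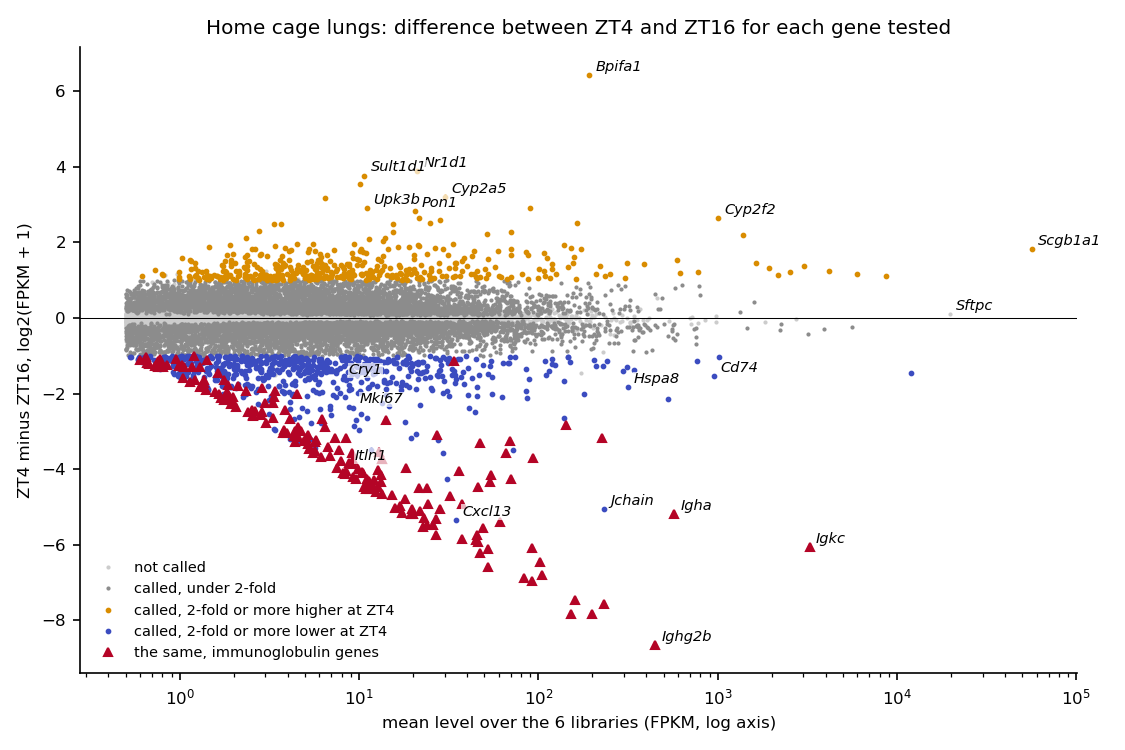
Each point is a gene: the x axis is its mean level over the 6 home cage libraries (FPKM, log axis) and the y axis the difference ZT4 minus ZT16 in log2(FPKM + 1). Coloured points are the 430 genes called at least 2-fold higher and the 797 called at least 2-fold lower at ZT4, and the red triangles among the latter are the 174 immunoglobulin genes, which reach the lowest values.

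The 12 largest rises and falls were taken by a set rule. Bpifa1, a secreted defence protein of the upper airway lining, was at 378, 385 and 378 FPKM at ZT4 and at 3.25, 3.77 and 3.37 FPKM at ZT16. All ZT4 libraries were far above all ZT16 libraries, a rise of 6.42 ± 0.0724 SE log2 units (85.5-fold). Sult1d1, a sulfotransferase, was at 19.5 to 22.1 FPKM at ZT4 and 0.529 to 0.706 FPKM at ZT16. Cyp2a5, a cytochrome P450, was at 53.8, 54.7 and 56.8 FPKM against 4.78, 5.24 and 5.40 FPKM (9.14-fold higher). Pon1, an esterase, rose 7.16-fold and Cyp2f2, the P450 of club cells, 6.29-fold. Nr1d1 and Upk3b, described below, also stood among these rises, as did Mir143 (11.8-fold) and the mitochondrial tRNA genes mt-Ta (9.02-fold), mt-Tl1 (7.55-fold) and mt-Tw (5.98-fold). In mt-Ta the 3 libraries at ZT16 had 1.03, 0 and 0.524 FPKM, or 2, 0 and 1 reads, so its fold rests on very few reads.

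The clock genes were set apart by phase. Nr1d1, on chromosome 11 at 98767932 to 98775333, encodes the repressor REV-ERB alpha and was at 41.3, 38.1 and 41.3 FPKM at ZT4 and at 2.14, 1.63 and 1.60 FPKM at ZT16. Every ZT4 library was above every ZT16 library, by 3.89 ± 0.054 SE log2 units (14.8-fold, adjusted p = 2.27e-32). Its relative Nr1d2 was at 21.7, 22.8 and 22.0 FPKM at ZT4 and at 9.72, 10.7 and 9.21 FPKM at ZT16, 2.13-fold higher. Dbp, the D-box activator, was at 15.8, 17.0 and 17.4 FPKM against 4.28, 4.34 and 4.18 FPKM, 3.36-fold higher. Per1, a repressor that glucocorticoid hormones also induce, was at 33.3, 32.2 and 32.2 FPKM against 13.8, 12 and 14.6 FPKM, 2.33-fold higher. In none of these 4 genes did the groups overlap.

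Genes of the opposite phase were led by Cry1, the late repressor of the loop. Cry1 was at 3.53, 3.67 and 3.29 FPKM at ZT4 and at 12.5, 13.1 and 12.4 FPKM at ZT16, 3.04-fold lower at ZT4 (log2 -1.60 ± 0.0552 SE, adjusted p = 7.02e-22). Per2 was at 9.60, 8.01 and 8.87 FPKM against 20.8, 19.8 and 21 FPKM, 2.19-fold lower, so the Per genes 1 and 2 moved in opposite directions between these times. The groups did not overlap in Cry1 or Per2 either.

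The other clock genes given here differed less. Tef rose by 0.75 log2 units, Cry2 by 0.55 and Npas2, a partner of ARNTL, by 0.48, while Nfil3 fell by 0.60, Bhlhe41 by 0.57, Bhlhe40 by 0.55 and Hlf by 0.26. Arntl itself was at 2.63, 2.36 and 2.58 FPKM at ZT4 and 1.87, 2.31 and 2.08 FPKM at ZT16, a rise of 0.19 ± 0.058 SE log2 units. Over the whole day in Ctrl lungs Arntl was at 5.46 FPKM at ZT0 and at 0.716 FPKM at ZT12; both ZT4 and ZT16 lie between these levels. The adjusted p of Arntl, 0.00484 in the 42-library fit, was 0.0635 when only the 6 libraries were fitted and 0.0538 without ZT16 replicate 1. Ciart (0.21) and Per3 (0.14) passed the test, but their groups overlapped. The adjusted p of Ciart rose from 0.0219 to 0.19 without ZT16 replicate 2, and that of Per3 from 0.0132 to 0.172 without ZT16 replicate 1. Clock (0.08, adjusted p = 0.195) and Rora (0.05, adjusted p = 0.424) did not pass. By list, 6 of the 8 clock repressors rose and 2 fell, and of the 6 output factors 2 rose and 4 fell. Of the 5 clock activators tested, 2 rose, 1 fell, by at least 2-fold, and 2 were not called. Among all genes tested 28.8% rose and 32.3% fell.

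**Figure D2:**
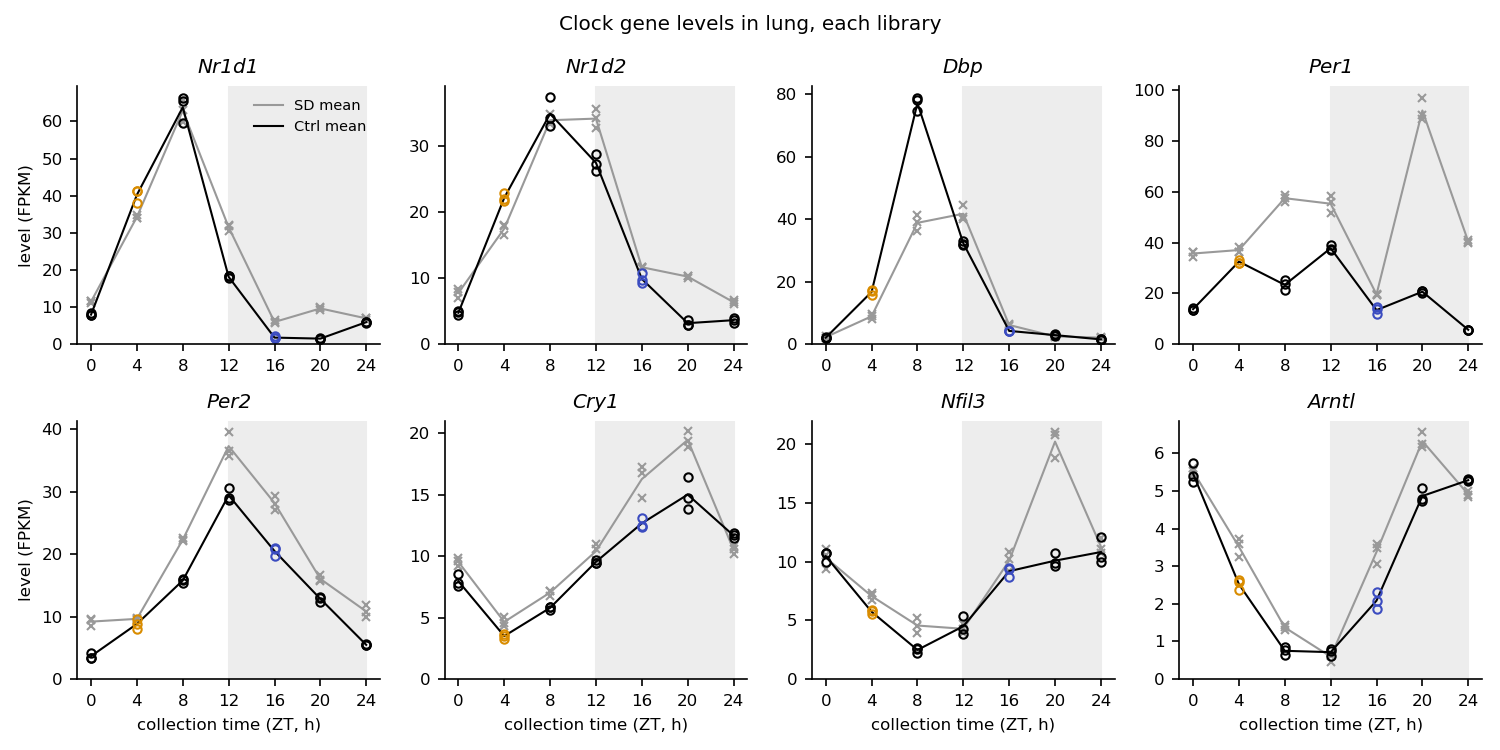
Level (FPKM) of 8 clock genes in every library against collection time (ZT, h). Circles are Ctrl libraries, with ZT4 in orange and ZT16 in blue, crosses are SD libraries, lines join the means of 3 libraries, and grey marks lights off from ZT12. Nr1d1 has a mean of 1.79 FPKM at ZT16 and 40.2 FPKM at ZT4 in Ctrl, while Arntl lies between its highest and lowest levels at both times.

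Genes of protein folding were lower at ZT4. Heat shock genes encode chaperones that refold proteins and are known to respond to heat and other stress. Of 20 heat shock chaperones tested, 18 fell, 0 rose and 2 were not called, with a median of -0.86 log2 units against -0.02 for all genes. Hspa8, the constitutive HSP70, was at 138, 137 and 137 FPKM at ZT4 and at 494, 511 and 473 FPKM at ZT16, 3.56-fold lower. Hspa1b, the inducible HSP70, was at 2.90, 3.22 and 3.15 FPKM against 14.8, 14.5 and 13.8 FPKM, 3.76-fold lower; its near-identical copy Hspa1a fell by 1.36 log2 units, and how reads were split between them is uncertain. Stip1 and Dnajb1, co-chaperones of HSP90 and HSP70, fell 2.35-fold and 2.29-fold. Hspa4l (0.01) and Bag3 (0.03) were the members not called. Cirbp, an RNA-binding protein induced by mild cold, went the other way: it was at 50.7, 51.8 and 49.8 FPKM at ZT4 and at 19.9, 15.1 and 19.2 FPKM at ZT16, 2.73-fold higher. Rbm3, the other cold-inducible member, rose 1.25-fold.

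Of 20 genes of folding and stress in the endoplasmic reticulum, 18 fell and 2 rose (median -0.69). Sdf2l1, a cofactor of the chaperone BiP, was at 12.5, 12.2 and 11.7 FPKM at ZT4 and at 55.3, 45.7 and 47.9 FPKM at ZT16, 3.85-fold lower. Hspa5 (BiP) fell by 1.09 log2 units, Edem1 by 1.32 and Xbp1, a factor that drives secretory capacity, by 0.86. Trib3 and Herpud1 rose, by 0.64 and 0.33. Plasma cells are known for high levels of these genes, and the summed level of the plasma cell list moved with them, from 409 to 421 FPKM per library at ZT4 to 9501 to 10577 FPKM at ZT16; its part in the result was not tested.

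Early response and hormone-driven genes were mostly higher at ZT4. Immediate early genes are transcription factors induced within minutes by signals and by handling of tissue. Of 22 tested, 16 rose and 3 fell, with a median of 0.44. Nr4a1, an orphan nuclear receptor, was at 114, 118 and 119 FPKM at ZT4 and at 24.6, 21 and 24.4 FPKM at ZT16 (4.86-fold higher). Egr1 was at 27.3, 28.0 and 27.5 FPKM against 9.65, 11.2 and 10.8 FPKM (2.48-fold higher) and Fos rose 2.07-fold, whereas Ier5 fell by 0.69, Egr3 by 0.59 and Egr2 by 0.55. Of 19 glucocorticoid response genes, 12 rose and 2 fell (median 0.69). Errfi1, a brake on the EGF receptor, was at 91.7, 96.2 and 91.7 FPKM against 25.9, 27.4 and 25.7 FPKM, 3.45-fold higher. Dusp1, a MAP kinase phosphatase, rose 2.16-fold and Klf9 1.99-fold. Fkbp5 fell by 0.27, and Tsc22d3 (0.01) and Sgk1 (-0.06), both classic hormone targets, were not called. Lcn2, a siderophore-binding protein, was the other fall and by far the larger, 6.31-fold, from 228 to 249 FPKM at ZT16 to 37.1 to 37.3 FPKM at ZT4.

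Genes of fatty acid oxidation were higher at ZT4, by small amounts. Of 27 fatty acid oxidation genes, 23 rose, 0 fell and 4 were not called, with a median of 0.40. Acaa2, the last enzyme of the mitochondrial cycle, was at 87.4, 87.9 and 86.3 FPKM at ZT4 and at 47.0, 44.1 and 45.7 FPKM at ZT16 (1.89-fold), and Cpt1a, which admits fatty acids to the mitochondrion, rose 1.28-fold. Of 15 PPAR alpha targets tested, 10 rose and 4 fell (median 0.50). Acot1, an acyl-CoA thioesterase, was at 14.7, 14.8 and 15.6 FPKM against 4.45, 4.24 and 4.73 FPKM (2.93-fold higher). Pdk4, a brake on pyruvate dehydrogenase, rose 2.79-fold, while Vnn1, a pantetheinase, fell by 1.08 and Fabp1 by 0.68. Synthesis genes were divided: 9 of 18 fatty acid synthesis genes rose and 3 fell (median 0.11), and of 23 cholesterol synthesis genes 9 rose and 6 fell (median 0.06). These shares lie closer to those of all genes, and within them Mvd, an enzyme of the mevalonate pathway, fell 1.74-fold and Acss2, an acetyl-CoA synthetase, rose 1.97-fold.

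RNA from the mitochondrial genome was higher at ZT4, and the nuclear genes of the same complexes were divided. Of 13 mitochondrial genes of the respiratory chain, 12 rose, each at least 2-fold, with a median of 1.25. The 3 ZT4 values did not overlap the 3 ZT16 values for 11 of the 13, against 62.4% of all genes. mt-Co1, the core subunit of cytochrome oxidase, was at 12084, 11420 and 11907 FPKM at ZT4 and at 5116, 6061 and 5244 FPKM at ZT16 (2.16-fold). mt-Atp6 varied widely between the ZT4 libraries, with 188, 382 and 279 FPKM at ZT4 against 44.4, 48.0 and 46.7 FPKM at ZT16, and mt-Nd4l was not called. Of 27 nuclear-encoded genes, 9 rose and 7 fell, with a median of 0.08, Ndufa4 rising 1.34-fold and Cox5a falling 1.20-fold. These counts are near the shares of all genes tested, 28.8% higher and 32.3% lower. Of 28 cytosolic ribosomal protein genes, 19 fell and 0 rose (median -0.19), led by Rpsa (1.59-fold lower). The total share of mitochondrial reads given above moved with these genes.

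Genes that clear foreign and oxidised compounds were higher at ZT4. Of 11 cytochrome P450 genes and their reductase, 10 rose and 1 fell (median 0.77). Por, the reductase that feeds electrons to P450 enzymes, was at 133, 133 and 132 FPKM at ZT4 and at 40.2, 38.4 and 37.5 FPKM at ZT16, 3.37-fold higher. Cyp1a1, which the aryl hydrocarbon receptor induces, was the member that fell, from 90.5 to 95.5 FPKM at ZT16 to 48.7 to 52.2 FPKM at ZT4. Of 18 NRF2 targets tested, 14 rose and 3 fell (median 0.74). Gsta2, a glutathione transferase, rose 3.42-fold, Nqo1 2.66-fold and Gsta4 by 1.34 log2 units. Hmox1, heme oxygenase, fell by 0.55. Several of these genes are also typical of club cells, whose markers moved with them. In the DNA damage response list 9 of 15 rose and 4 fell (median 0.25), but 2 fell without ZT4 replicate 3 or without ZT16 replicate 2, with Gadd45b 1.37-fold higher and Phlda3 1.38-fold lower.

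The lining of the conducting airways and alveoli was higher at ZT4 in most markers. Of 10 club cell genes, 9 rose, each at least 2-fold, and Scgb3a1 was not called, with a median of 1.53. Scgb1a1, the secretoglobin that marks club cells, was at 84619, 93482 and 87027 FPKM at ZT4 and at 24652, 27839 and 22123 FPKM at ZT16 (3.57-fold). Cyp2f2 was at 1743, 1719 and 1729 FPKM against 284, 271 and 268 FPKM, and Cckar, the cholecystokinin A receptor, rose by 1.91 log2 units. In neither gene did the groups overlap. All 12 ciliated cell genes tested rose (median 0.90): Foxj1, the master factor of motile cilia, rose 1.63-fold and Dnah5, an outer arm dynein, 2.59-fold. All 12 alveolar type 1 genes rose (median 0.67), led by Hopx at 412, 425 and 390 FPKM against 212, 178 and 204 FPKM (2.07-fold). Alveolar type 2 genes were less uniform, with 10 of 14 higher, 3 lower and a median of 0.19. Cxcl15, lungkine, rose 2.88-fold, Il33, an alarmin, fell 1.84-fold and Sftpc (0.11, adjusted p = 0.195) was not called.

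Transport genes of the epithelium followed the same direction. Of 12 tested, 9 rose and 3 fell (median 0.54). Scnn1b, a subunit of the sodium channel ENaC that keeps the airspace dry, was at 64.5, 66.3 and 64.0 FPKM at ZT4 and at 22.1, 18.1 and 20.6 FPKM at ZT16 (3.11-fold), and Scnn1g rose 2.61-fold. Aqp3, a water channel, fell 1.56-fold at levels of 0.973 to 2.79 FPKM.

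Mucous and defence genes of the airway went the other way, with Bpifa1 and Bpifb1 as exceptions. Of 12 tested, 8 fell and 2 rose (median -1.24). The mean log2(FPKM + 1) of the list in Ctrl was 4.29 at ZT4 and 4.65 at ZT16. It was 2.52 at ZT0 and 5.31 at ZT24, the same clock hour, a wider gap than between ZT4 and ZT16. Reg3g, an antibacterial lectin, was at 40.8, 46.7 and 42.9 FPKM at ZT4 and at 135, 136 and 131 FPKM at ZT16 (3.04-fold lower). Pigr, which carries IgA across the epithelium, fell by 1.48 log2 units, Tff2, a trefoil peptide, by 1.34, Clca1 by 1.31 and Agr2, a folding factor of mucus cells, by 1.29. The mucin gene Muc5b (0.06) was not called. Bpifb1 rose by 0.71. Cd177 and Itln1 stood among the 12 largest falls: Cd177, a surface protein of neutrophils and of some epithelia, was 11.9-fold lower, and Itln1, intelectin, was at 0.255, 0.164 and 0.323 FPKM against 15.8, 16.4 and 19.6 FPKM.

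Mesothelial genes mark the pleural surface. Of 8 listed, 6 passed the filter on low values and 6 rose at ZT4 (median 1.38). The median was 0.85 over 8 genes with no filter and 0.997 over 7 with the filter taken over all 42 libraries, all called higher, and 5 of 6 were called without ZT4 replicate 2 or ZT16 replicate 2. Upk3b was at 19.6, 21 and 20.0 FPKM at ZT4 and at 1.89, 1.65 and 1.95 FPKM at ZT16 (7.5-fold). Lrrn4 rose 4.36-fold and Rspo1 by 1.76 log2 units, but Msln rose by only 0.25. The amount of pleura per lung is not given by the labels, and its part in the result was not tested.

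Antibody genes had the largest falls at ZT4, and other immune genes fell with them. Ighg2b, the constant region of IgG2b, was at 1.07, 1.40 and 1.24 FPKM at ZT4 and at 919, 886 and 887 FPKM at ZT16. The 3 libraries of each time were close to each other, and the difference was -8.65 ± 0.0892 SE log2 units (402-fold lower at ZT4, adjusted p = 7.60e-36). Igkc, the kappa constant region, was at 93.1, 101 and 90.3 FPKM against 6312, 6929 and 5977 FPKM (66.8-fold lower). Igha, of IgA, was at 28.1, 32.7 and 28.4 FPKM against 1133, 1110 and 1102 FPKM (36.4-fold lower). Jchain, the joining chain of IgA and IgM, was at 12.7, 13 and 12 FPKM against 440, 486 and 429 FPKM (33.4-fold lower). Ighg2c fell 125-fold, Ighg1 53.2-fold and Iglc3 11.8-fold. Antibody genes took 0.0321% to 0.0344% of reads at ZT4 and 1.23% to 1.31% at ZT16. Reads of the related immunoglobulin genes can be split between copies, so single values are uncertain.

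Of 20 plasma cell genes, 18 fell and 2 rose (median -2.74), and the median was -1.41 with the immunoglobulin genes left out, a setting chosen after seeing the data. Mzb1, a chaperone of antibody secretion, was at 11.4, 10.5 and 10.9 FPKM at ZT4 and at 145, 125 and 133 FPKM at ZT16 (11.3-fold lower). Prdm1, the factor that makes a plasma cell, fell 1.47-fold. The rises were Sdc1 (1.50-fold), which epithelia also express, and Tent5c (0.28 log2 units). Of 175 variable, diversity and joining segments tested, 95 had a mean of at least 10 FPKM at ZT16. Across the 3 ZT16 libraries these had a median coefficient of variation of 10.9%, with a median ratio of highest to lowest of 1.24. They were picked on the mean of the same 3 libraries, and segments at lower levels were left out. How alike the full sets of segments were was not tested.

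**Figure D3:**
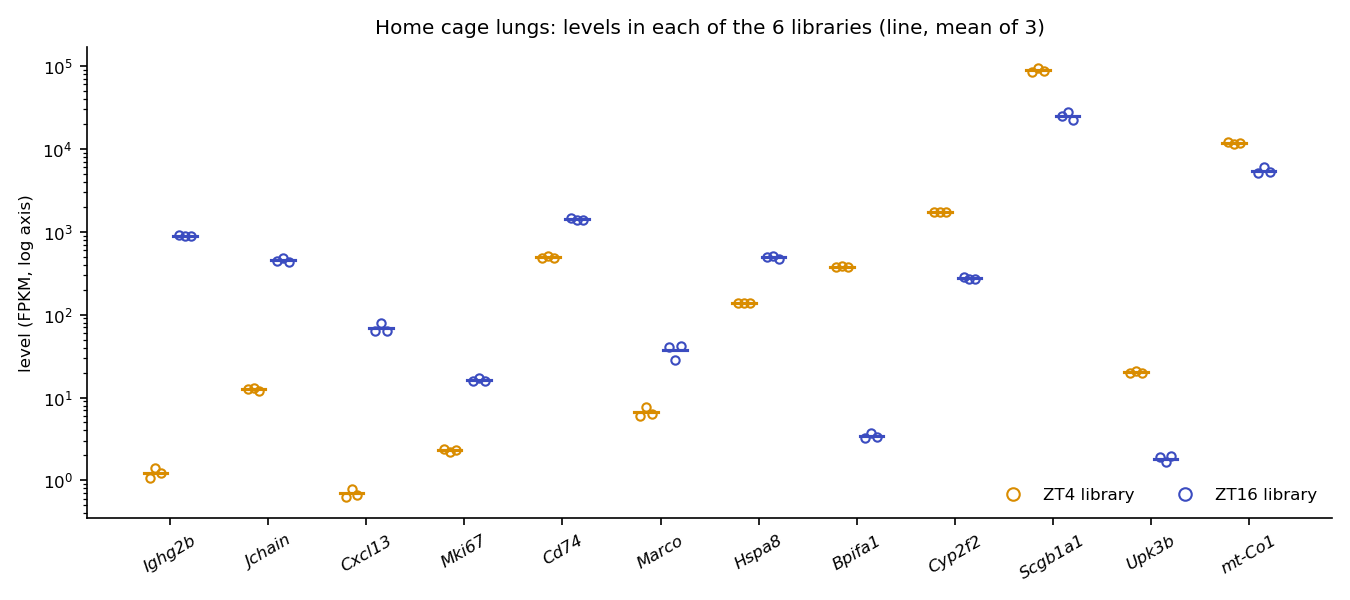
Levels (FPKM, log axis) of 12 genes in each of the 6 home cage libraries, ZT4 in orange and ZT16 in blue, with a line at the mean of 3. The immune, cell cycle and heat shock genes on the left lie higher at ZT16, Ighg2b by the widest margin, and the airway, mesothelial and mitochondrial genes on the right lie higher at ZT4.

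B cell genes fell with the antibody genes. Of 16 tested, 15 fell, 0 rose and Vpreb3 was not called (median -1.62). Spib, a transcription factor of B cells, was at 3.18, 3.01 and 3.22 FPKM at ZT4 and at 37.7, 34.3 and 36.2 FPKM at ZT16 (8.96-fold lower). Ms4a1 (CD20) fell 6.47-fold, Cd79a, a part of the B cell receptor, 4.03-fold and Cr2, a complement receptor of B cells and follicular dendritic cells, 4.47-fold. All 19 T cell genes fell (median -1.08), with Trac, the T cell receptor alpha constant region, at 5.40, 5.45 and 5.60 FPKM against 22.8, 24.7 and 20.8 FPKM (3.65-fold lower). The thymocyte genes Rag1, Rag2, Dntt and Ptcra were under the filter, and of 9 thymocyte genes the 3 tested fell, among them the T cell genes Cd8a and Cd8b1. Of 12 natural killer genes, 5 fell, 1 rose and 6 were not called; 8 fell without ZT4 replicate 2. Ncr1 (0.04) and Klrb1c (0.01), which define these cells, were among the last, and Gzmb, a granule protease shared with T cells, fell 2.30-fold.

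Chemokines that arrange lymphoid tissue stood out. Of 26 chemokine genes tested, 22 fell and 1 rose (median -1.39). Cxcl13, which draws B cells into follicles, was at 0.632, 0.783 and 0.674 FPKM at ZT4 and at 63.5, 78.8 and 63.5 FPKM at ZT16 (40.8-fold lower). Ccl20, which draws CCR6-bearing lymphocytes to epithelium, fell 9.17-fold, and Ccl8, a monocyte chemokine, 9.31-fold. Ccl19 was listed at 0 in the 3 ZT4 libraries and at 16.6, 0.111 and 15.8 FPKM at ZT16, so 1 library of ZT16 differed from the other two. Ccl21a, which has near copies, was scattered in both groups (2.90 to 33.0 FPKM) and was not called. The single rise was Cxcl15, an epithelial gene. Ly6i, a gene of the Ly6 family, stood among the 12 largest falls at 1.79 to 2.36 FPKM against 53.1 to 64.2 FPKM.

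Antigen presentation and cell division moved with the lymphoid genes. All 11 class II genes fell (median -1.39), with the invariant chain Cd74 at 482, 513 and 476 FPKM at ZT4 and at 1477, 1403 and 1387 FPKM at ZT16 (2.90-fold lower) and H2-Eb2 5.48-fold lower. Of 12 class I genes, 11 fell (median -0.48), B2m, the light chain of class I, falling 2.06-fold. All 28 genes of cell cycle and DNA replication fell (median -1.46). Mki67, the proliferation marker Ki-67, was at 2.42, 2.21 and 2.34 FPKM against 15.6, 17.1 and 15.9 FPKM (5.18-fold lower), and Rrm2, which supplies DNA precursors, fell 5.09-fold. The interferon response was less uniform: 14 of 26 genes fell, 4 rose and 8 were not called (median -0.17), with Cxcl9 3.22-fold lower and Usp18 1.32-fold higher. The summed level of the 16 B cell genes was 131 to 139 FPKM per library at ZT4 and 404 to 427 FPKM at ZT16, and that of the 19 T cell genes 80.8 to 88.4 and 218 to 227 FPKM; their part in the cell cycle and class II results was not tested.

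Macrophage genes were also lower at ZT4. Of 15 alveolar macrophage genes, 14 fell, 0 rose and Fabp4 was not called (median -1.19). Marco, a scavenger receptor, was at 5.93, 7.73 and 6.25 FPKM at ZT4 and at 41.0, 28.3 and 41.8 FPKM at ZT16 (4.93-fold lower), and Itgax (CD11c) fell 3.52-fold. Of 11 interstitial macrophage genes, 9 fell and 2 rose, led by C1qb, a complement subunit, which fell 4.12-fold. Of 12 dendritic cell genes 11 fell (median -0.67), with Fscn1, an actin bundler of mature dendritic cells, 3.51-fold lower and Clec9a (-0.04) not called. Of 14 monocyte genes, 11 fell and 3 rose (median -0.43), with Chil3, a chitinase-like protein also made by alveolar macrophages, 4.46-fold lower. Neutrophil genes were divided, 6 of 14 lower and 3 higher (median -0.03), beside 32.3% lower and 28.8% higher among all genes tested. S100a8 (0.11) and S100a9 (-0.08), the most abundant neutrophil genes, were not called. Camp rose by 1.05 log2 units and Ltf fell by 1.18. Of the mast cell, basophil and eosinophil list 5 of 12 genes were tested, and Cpa3, a mast cell protease, rose 1.92-fold while Prg2, the eosinophil major basic protein, fell 2.23-fold.

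Stromal and vascular genes differed less. Of 28 extracellular matrix genes, 20 fell and 2 rose (median -0.33). Fn1, fibronectin, was at 11.3, 10.7 and 11.5 FPKM at ZT4 and at 35.2, 35.9 and 35.1 FPKM at ZT16 (3-fold lower) and Col3a1 fell 2.03-fold. Of 15 fibroblast genes, 9 fell and 3 rose, with Inmt, a methyltransferase, 1.84-fold higher. Of 14 smooth muscle and pericyte genes, 9 rose and 3 fell (median 0.33): Cnn1, calponin, rose 3.65-fold and Rgs5, a pericyte gene, fell 2.42-fold. Of 18 endothelial genes, 11 fell and 5 rose (median -0.20), with Apln, the ligand apelin, 1.88-fold lower and Gpihbp1, which holds lipoprotein lipase on capillaries, 1.65-fold higher. Of 6 lymphatic endothelial genes, 3 fell and 1 rose, beside 32.3% and 28.8% of all genes tested. Platelet genes rose in 8 of 9 cases (median 0.54), Gp9 2.07-fold.

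Tissues that a lung dissection can carry along were checked, beside 28.8% of all genes tested that rose and 32.3% that fell. Red cell genes were little different, with 4 of 8 lower and 1 higher, and Hba-a1 1.34-fold lower. Heart muscle genes, which in mouse lung also come from the sleeves of the pulmonary veins, rose in 7 of 12 cases and fell in 1 (median 0.28). Their summed level was 203 to 207 FPKM per library at ZT4 and 141 to 155 FPKM at ZT16. In skeletal muscle, Myh2 and Myh4 were at 0 in all 6 libraries, 4 of 10 genes were tested and Tnnt3 rose 2.18-fold. Fat markers rose in 5 of 8 cases and fell in 2, with Adipoq, adiponectin, at 3.52 to 4.99 FPKM at ZT4 and 0.341 to 0.820 FPKM at ZT16 (3.20-fold). Cidec, a lipid droplet gene on both the fat and the alveolar macrophage lists, was at 4.68, 5.13 and 4.85 FPKM against 11.3, 10.1 and 11.5 FPKM and fell by 1.03, and Lpl, lipoprotein lipase, fell by 0.63. Of the thyroid, gut and liver list 1 of 11 genes was tested and it was not called, and Reg3b was at 0. Of 4 basal airway genes 2 fell and 1 rose, and of 5 neuroendocrine and neuronal genes 3 rose and 1 fell, Calca, the calcitonin gene, 1.93-fold higher.

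The next question is whether these 2 times are the extremes of the day in home cage lungs. Among the 430 genes at least 2-fold higher at ZT4, ZT4 was the highest of the 7 Ctrl times for 285 (66.3%) and ZT16 the lowest for 323 (75.1%), against 18.2% and 22.1% of all genes tested. Among the 797 genes at least 2-fold lower, ZT4 was the lowest for 595 (74.7%) and ZT16 the highest for 683 (85.7%), against 19.8% and 29.9%. Because these genes were chosen for the difference between ZT4 and ZT16, such ranks are a description. A 24 h cosine fitted to the other 5 Ctrl times, which uses none of the 6 libraries, gave a difference of the same sign for 368 of the 430 higher genes (85.6%), against 48.8% of all genes with a positive value. It did so for 355 of the 797 lower genes (44.5%), against 51.2% of all genes with a negative value.

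Single genes show what lies behind these shares. Nr1d1 had a measured difference of 3.89 log2 units and a cosine value of 3.39, and Cry1 had -1.60 and -1.21. The antibody gene Ighg2b, with a measured difference of -8.65, had a cosine value of 2.40. Its group means over the day were 0.959 FPKM at ZT0, 1.24 at ZT4, 294 at ZT8, 452 at ZT12, 897 at ZT16, 0.904 at ZT20 and 63.0 at ZT24. The level was thus low at ZT20, next to its highest value at ZT16, and differed between ZT0 and ZT24, which are the same clock hour. Cxcl13 ran through 1.28, 0.696, 20.5, 25.8, 68.6, 2.14 and 6.58 FPKM at the same 7 times. Mki67 went from 2.32 FPKM at ZT4 to 8.65 at ZT12 and 16.2 at ZT16 and was at 3.17 FPKM at ZT20. Cyp2f2, a rise, had its highest mean of the day at ZT4 and its lowest at ZT16, with 748 FPKM at ZT20 and a cosine value of 1.08 beside the measured 2.65. Some gene lists also differed between ZT0 and ZT24 in Ctrl, in mean log2(FPKM + 1). Basal airway genes were at 0.65 and 1.74, fat genes at 2.08 and 3.25 and heart muscle genes at 2.32 and 3.36. Others differed little, such as club cell genes at 8.84 and 8.93.

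The last question is whether the same 2 times differ in the same way in SD cages, which share no library with the Ctrl comparison. Clock hour 12 (ZT4) lies outside the daily cage hours, 14 to 10, and clock hour 24 (ZT16) lies within them. In SD lungs, time of day and time in or since the SD cage therefore cannot be told apart. In SD lungs, 4675 of the 17132 genes (27.3%) were called, 2228 higher at ZT4 (13%) and 2447 lower (14.3%), and 52 (0.304%) and 64 (0.374%) were at least 2-fold higher and lower. The median size of a difference was 0.11 log2 units, against 0.24 in Ctrl. The difference between the Ctrl and the SD comparison was itself called for 8303 genes (48.5%), 4096 with a more positive value in Ctrl (23.9%) and 4207 with a more negative one (24.6%). By at least 2-fold these were 351 (2.05%) and 915 (5.34%). With the libraries scaled to total reads in place of the deposited scaling, 60.9% of the calls in SD were higher at ZT4, against 47.7%, and 37.9% of the calls of the difference were more positive in Ctrl, against 49.3%.

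The genes that differed most in Ctrl were followed into SD. Of the 430 genes at least 2-fold higher in Ctrl, 224 were called higher in SD (52.1%, against 13% of all genes) and 40 were called lower (9.3%). Of the 797 at least 2-fold lower, 78 were called lower in SD (9.79%, against 14.3% of all genes) and 151 higher (18.9%).

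The clock genes with the largest differences in Ctrl had the same direction in SD, and Tef, Per3 and Ciart were called in opposite directions. Nr1d1 was at 34.3 FPKM at ZT4 and 6.00 at ZT16 in SD lungs, a difference of 2.34 log2 units, smaller than in Ctrl by 1.55 (adjusted p of the difference 1.81e-17). Cry1 differed by -1.61 in SD and -1.60 in Ctrl, and the 2 values were not distinguished (adjusted p = 0.96). Per2 differed by -1.46 in SD, somewhat more than in Ctrl. Dbp differed by 0.47 in SD against 1.75 in Ctrl, Per1 by 0.89 against 1.22 and Tef by -0.30 against 0.75. Heat shock chaperones fell in SD too, 20 of 20, with a median of -0.67, and Cirbp rose by 0.65. Hspa8 fell by 1.13 there.

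Other groups went their own way in SD lungs. List counts in SD are to be read beside the shares of all genes tested there, 13% higher and 14.3% lower. Counts for the difference between Ctrl and SD are to be read beside 48.5% of all genes. The antibody genes took 0.0158% to 0.0190% of reads in the 6 SD libraries of these times, and Ighg2b was at 0.802 and 0.604 FPKM. The plasma cell list had a median of 0.01 in SD, and of its 20 genes 20 were called for the difference between Ctrl and SD. Of the 28 cell cycle genes, 2 were called lower in SD (median -0.09), and all 28 were called for the difference. B cell genes rose in SD in 13 of 16 cases (median 0.49), T cell genes in 11 of 19 (median 0.27) and class II genes in 8 of 11 (median 0.26). Club cell genes had a median of 0.26 in SD and 7 of 10 rose. Of the 13 mitochondrial genes of the respiratory chain 2 were called in SD, both lower, with a median of -0.20. This count is near the share of all genes called lower in SD.

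Mesothelial and immediate early genes were turned around. Mesothelial genes, higher at ZT4 in Ctrl, were lower in SD in 6 of 6 cases (median -1.80): Upk3b was at 4.57 FPKM at ZT4 and 36 at ZT16 in SD, and its difference between conditions was 5.64 ± 0.0807 SE log2 units. Immediate early genes fell in SD in 17 of 22 cases and rose in 0 (median -0.40), with Nr4a1 at 17.3 and 39.3 FPKM. In all, 17 genes were at least 2-fold higher at ZT4 in Ctrl and at least 2-fold lower in SD, among them Fos, Egr1, Nr4a1, Upk3b, Lrrn4 and Rspo1, and 7 genes showed the reverse, among them Reg3g and Tff2. At least 2-fold in the same direction in both were 13 higher genes, among them Bpifa1, Nr1d1, Pdk4, Angptl4 and Acot1, and 10 lower genes, among them Cry1, Per2, Hspa8 and Cxcl5.

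**Figure D4:**
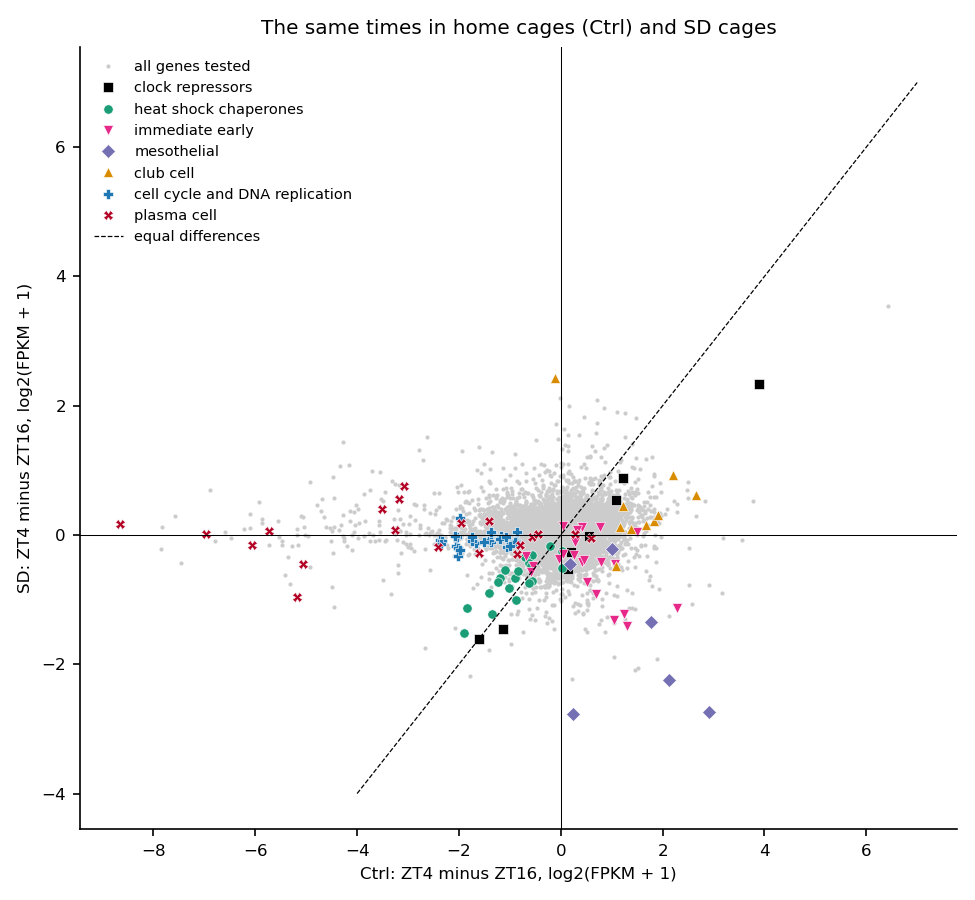
Each grey point is a gene, with its difference ZT4 minus ZT16 in Ctrl on the x axis and in SD on the y axis, both in log2(FPKM + 1), and the dashed line marks equal differences. Nr1d1, Cry1, Per2 and 18 of the 20 heat shock chaperones lie on the same side of 0 in both, most plasma cell and cell cycle genes lie along the x axis near an SD difference of 0, and 6 mesothelial genes lie in the lower right.

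**Figure D5:**
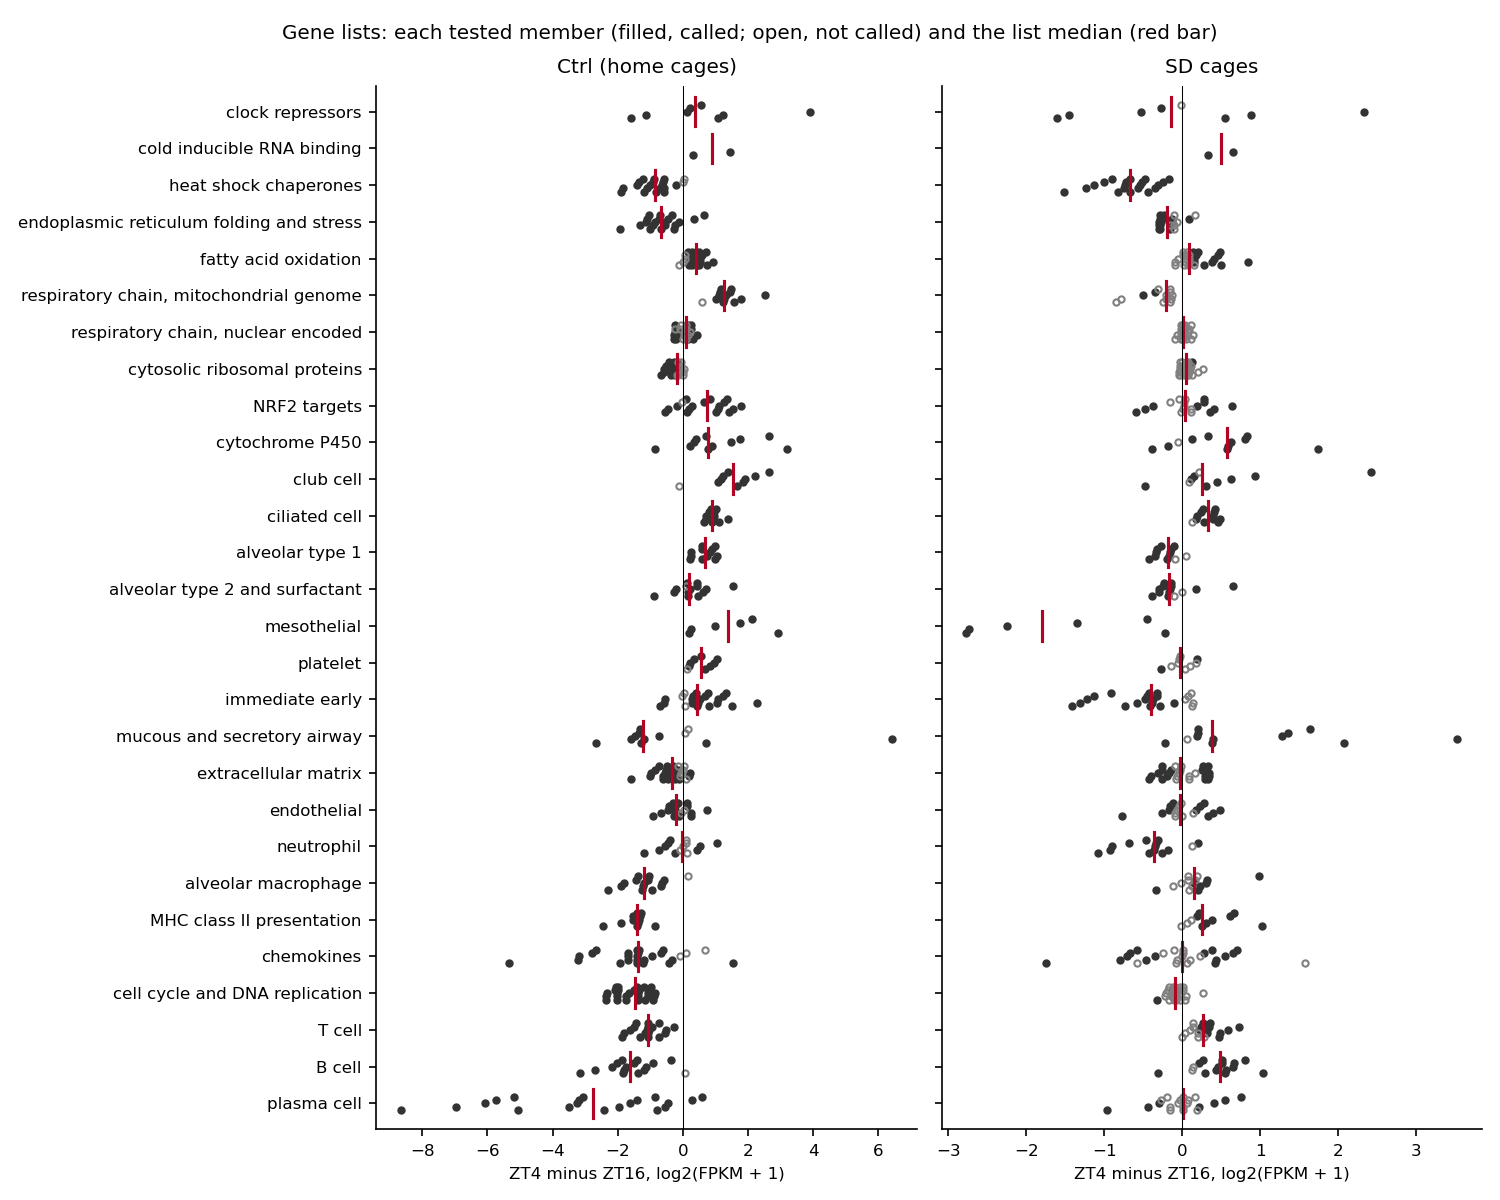
Differences ZT4 minus ZT16 in log2(FPKM + 1) of the tested members of 28 gene lists, in Ctrl on the left and SD on the right (the 2 x axes have different ranges). Filled points are called genes, open points are not, and red bars are list medians, which in Ctrl run from -2.74 for plasma cells to 1.53 for club cells.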

How the data were processed

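Whole lung RNA of wild-type mice was sequenced in 42 libraries, 3 for each of 14 groups of housing and time. Total RNA was extracted with TRIzol and made into libraries with the NEBNext Ultra RNA kit, per the labels' protocols. The submitters' processing notes name HISAT2 2.0.5, featureCounts 1.5.0-p3 and build mm10. How multi-mapped reads and strand were treated, and which tool made FPKM, was not given in the sources used here, so overlapping genes, antisense genes and near-identical copies are uncertain.

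The deposited table gives FPKM per gene, as the authors computed it. Multiplying FPKM by the gene length listed by the authors gave whole reads for at least 99.94% of values in each library, within 0.1 of a read, and 25285525 to 29790252 reads per library. The library factors matched a median of ratios scaling, with a largest log deviation of 8.55e-05. No sample column was unused.

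Symbols turned into dates were restored for 27 genes. Genes with a mean of at least 0.5 FPKM over the 6 Ctrl libraries were kept, and log2(FPKM + 1) was fitted with limma 3.58.1 in R 4.3.3 (trended variance) with 14 group means over all 42 libraries. Contrasts were Ctrl ZT4 minus ZT16, the same in SD, and their difference. P-values were adjusted by Benjamini-Hochberg over all 17132 genes, with a threshold of 0.05. The model was tested on simulated data first.

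Named genes were the 12 largest rises and falls (mean of at least 1 FPKM, groups not overlapping, without predicted genes, pseudogenes and variable segments), all clock genes, and the largest called change in each direction of each of the other lists; other genes named were chosen after their values were seen. Some genes that the rule names are not reported here, though they are in the counts. The members and gene lists were chosen with earlier results of these data known. No 2 libraries of a group agreed within sampling noise. Replicate numbers were not used to pair the libraries in the main fit. Alternatives were another pseudocount, filters and scalings, array weights, a replicate block, a fit of the contrast's libraries only, leaving out each library and, added after seeing the data, leaving out immunoglobulin genes. The table's other libraries serve the shared spread and the time courses.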

Additional observations from a re-analysis of the deposited data

Results flagged for a closer look

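The ZT4 minus ZT16 difference was itself different between home cage and SD lungs, by more than 2-fold, for 48 of the 113 named genes by limma's test against that threshold, 30 with a more negative and 18 with a more positive value in Ctrl. Over all 17132 genes this held for 596 (3.48%). The plain test of the difference called 100 of the 113, against 48.5% of all genes. Named genes outside the clock lists were chosen for a large Ctrl difference, which is part of the value tested. Their shares are therefore a description and not a result beside those of all genes. Those given here are the Ctrl difference minus the SD difference in log2 units.

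Antibody and plasma cell genes had the most negative values: Ighg2b (-8.82), Ighg2c (-6.98), Igkc (-5.91), Ighg1 (-5.80), Jchain (-4.62), Iglc3 (-4.53), Igha (-4.22) and Mzb1 (-3.91). Other genes of lymphocytes, antigen presentation and chemokines followed, with Cxcl13 (-5.01), Spib (-3.73), H2-Eb2 (-2.84), Trac (-2.19), Fscn1 (-1.96), Cd8b1 (-1.82), Cxcl9 (-1.79) and Gzmb (-1.71). Among genes of macrophages, monocytes, neutrophils and the airway surface these were Ly6i (-4.25), Itln1 (-3.85), Cd177 (-3.50), Marco (-2.50), Lcn2 (-2.44), Chil3 (-2.16), C1qb (-1.72) and Ltf (-1.38). Cidec, a lipid droplet gene on the fat and alveolar macrophage lists, had -1.35. The remaining negative values were those of Mki67 (-2.29) and Cyp1a1 (-1.70), and of Sdf2l1 (-1.65), Fn1 (-1.54) and Col3a1 (-1.32).

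Positive values were found for the mesothelial gene Upk3b (5.64), the immediate early gene Nr4a1 (3.42) and the clock gene Nr1d1 (1.55). Airway and detoxifying genes were Bpifa1 (2.88), Sult1d1 (3.24), Cyp2a5 (3.24), Pon1 (2.31), Cyp2f2 (2.03), Gsta2 (1.49) and Scnn1b (1.40). The mitochondrial genes were mt-Ta (4.07), mt-Tl1 (3.69), mt-Tw (3.65) and mt-Atp6 (2.73). The others were Mir143 (3.63), Cnn1 (1.28) and Camp (1.98), a gene of the neutrophil list that went the other way from Ltf of the same list. Mir143 and the mitochondrial tRNA genes are shorter than a sequenced fragment.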

How the results depend on the processing

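With a pseudocount of 0.1, genes at least 2-fold higher and lower at ZT4 numbered 968 and 1302 in Ctrl, 183 and 112 in SD, and 693 and 1413 for the difference between them. All other settings kept these counts and the counts of called genes within 1.5 times. Leaving out 1 library at a time gave 9808 to 9996 called genes in Ctrl (4616 to 4737 higher, 5180 to 5301 lower, 416 to 457 and 779 to 801 at least 2-fold), 3910 to 4059 in SD (1857 to 1930, 2053 to 2135, 51 to 57 and 57 to 67) and 7828 to 8025 for the difference (3861 to 3962, 3956 to 4063, 346 to 375 and 895 to 923). Same-numbered libraries did not deviate together in Ctrl (r from -0.04 to 0.03), and a fit with the replicate number as a block called 10445 genes. In SD, r was 0.045 to 0.064 for same-numbered libraries, small but above the highest r with another number (-0.008). The block fit called 4658 genes there, against 4675. Scaling to total reads left 41.3% of the Ctrl calls higher at ZT4, against 47.1%. Without immunoglobulin genes, 10285 genes were called in Ctrl. Of 113 named genes, 107 kept their side of the threshold under every setting that gave them a value (15 settings, of which the 6 named immunoglobulin genes have none where these genes are left out) and 0 changed direction; the exceptions were Arntl, Ciart, Per3, Pf4 and Slc4a1, which each lost their call under 1 or more, and Clock, which passed with array weights (adjusted p = 0.0404). Of 810 list medians under these settings, 5 changed sign. Among them was that of the neutrophil list, 0.02 without ZT4 replicate 1, against -0.03. With a pseudocount of 0.1 the median was -1.05 for the dendritic cell list, against -0.67. It was then -2.09 for cell cycle genes, against -1.46, and 1.27 for neuroendocrine and neuronal genes, against 0.54. With no filter it was 0.14 for heart muscle, against 0.28, and -0.04 for basal airway, against -0.40. The thymocyte list then had -0.27, against -0.72, and the mast cell, basophil and eosinophil list -0.02, against -0.36. Genes with few reads, such as mt-Ta, are the least precise, and the 3 libraries per group limit all estimates of spread.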
